A study of Mus musculus with 16 samples.

Results

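Txnip and Gm15441 are 2 genes of mouse chromosome 3 that lie on opposite strands and share exon sequence. Both were followed library by library in liver RNA, and they are 2 of the 50559 gene symbols in the deposited table. Gm15441 was chosen by its measured counts, which rose steeply with the ketohexokinase (KHK) inhibitor, so its values in the inhibitor group are given as a description, without a test. Txnip was taken as its partner on the other strand.

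The 16 RNA libraries, 4 in each of 4 groups, came from the livers of male C57BL/6J mice. The mice were 6 weeks old when they started a low-fat diet (LFD; the labels call this group chow) or a high-fat diet (HFD), which they ate for 10 weeks in all. Over the last 4 weeks, the LFD, HFD and HFD + Inhib mice received a luciferase control siRNA at 10 mg/kg every 2 weeks, while the HFD + siRNA mice received an siRNA against total Khk at 20 mg/kg. At 2 times a day, the HFD + Inhib mice were gavaged with the KHK inhibitor PF-06835919 at 15 mg/kg in methylcellulose, and the mice of the other groups with methylcellulose alone. Every library therefore comes from a mouse that was both injected with an siRNA and gavaged. The siRNA is directed to the liver, whereas the inhibitor acts on the whole body. Per the methods, mice were given saline or insulin shortly before the tissue was taken. The labels do not say which, so it cannot be told apart from the other differences between libraries. The labels number the libraries of a group without saying that each is a separate mouse, so the p-values measure the spread between libraries. Totals ranged from 24317111 to 35820234 counts per library. In bulk liver RNA, fewer cells of a type and less RNA per cell cannot be told apart.

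Thioredoxin-interacting protein, the product of Txnip, is an α-arrestin that binds reduced thioredoxin and restrains the uptake of glucose. Its gene is a classical target of the carbohydrate-sensing factors ChREBP (Mlxipl) and MondoA (Mlxip), and its protein has been linked to the NLRP3 inflammasome. Gm15441 is a long non-coding RNA transcribed from the opposite strand. In mouse liver it is known to be induced through PPARα, the receptor that switches on fatty acid oxidation during fasting, and it has been described as a brake on Txnip.

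The sequence that both genes use is shown first, since it bears on how their reads can be counted. In GENCODE M21, the longest Gm15441 transcript has 4 exons and 1653 bases, of which 606 bases (36.7%) lie in exons of Txnip. Of the shared bases, 327 are in the Txnip coding sequence. The longest Txnip transcript has 8 exons and 2827 bases, of which 21.4% are shared. The shorter Gm15441 transcript (3 exons, 659 bases) shares no base with Txnip exons. Exon 2 of the longer Gm15441 transcript, 165 bases long, falls wholly inside Txnip coding sequence, at GRCm38 chr3:96559678-96559842. Both strands of that exon are printed to show that one is the reverse complement of the other.
Gm15441 exon 2 (minus strand): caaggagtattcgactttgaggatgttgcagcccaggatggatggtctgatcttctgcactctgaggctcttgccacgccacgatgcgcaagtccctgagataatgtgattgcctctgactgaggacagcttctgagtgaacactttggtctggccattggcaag
Txnip coding strand (plus strand): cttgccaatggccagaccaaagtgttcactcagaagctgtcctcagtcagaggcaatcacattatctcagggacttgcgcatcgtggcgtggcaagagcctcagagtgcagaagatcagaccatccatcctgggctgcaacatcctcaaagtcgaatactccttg

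Exon 3 of the same Gm15441 transcript is 1112 bases long and runs across the start of Txnip. It covers 441 bases of Txnip exons and continues for 671 bases upstream of the Txnip start, so that the Txnip promoter is itself antisense exon sequence. All 160 bases of the promoter stretch printed next, from RefSeq at GRCm38.p6 chr3:96557797-96557956 on the plus strand, lie within Gm15441 exons. Motifs were searched on both strands of a longer window of 300 bases around the start, here and in the other promoters, and capitals mark the matches.
Txnip promoter: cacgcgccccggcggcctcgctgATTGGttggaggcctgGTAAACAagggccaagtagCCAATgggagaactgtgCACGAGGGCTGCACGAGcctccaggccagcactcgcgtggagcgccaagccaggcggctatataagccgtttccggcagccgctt

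The paired carbohydrate response element, searched with the letters known from Txnip itself (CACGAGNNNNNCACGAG), matched 1 time, 85 bases before the start. Of the 32851 promoters in the RefSeq table, 0.00304% held it, which is 1 promoter, that of Txnip. As the letters came from Txnip, its match was set in advance, and this share does not measure how particular such elements are to Txnip. A forkhead motif (GTAAACA), which FOXO factors can bind, matched 121 bases before the start and was present in 3.65% of promoters. The CCAAT box matched 2 times, at 137 and 102 bases before the start, and 37.4% of promoters held one. The direct repeat AGGTCANAGGTCA, a consensus for PPARα with its partner RXR, did not match in the Txnip window and was present in 0.0396% of promoters. TATAAA did not match either (13.6% of promoters). These matches describe letters in the window and say nothing of what was bound there. The promoter of Gm15441 was not among the promoters at hand, so it was not searched for any of these motifs.

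The deposited values show that reads of the pair were divided between its members. They are expected counts, in which a read that fits several genes is split. Txnip alone was not a whole number in 16 of 16 libraries, and neither was Gm15441, but their sum was whole in 16 of 16 (within 0.02 counts). In HFD + Inhib replicate 1, for example, 3999.48 counts of Txnip and 5712.52 of Gm15441 summed to 9712. In LFD replicate 1, 1198.52 and 1.48 summed to 1200. A sum of this kind is what dividing whole reads between these 2 genes gives. The pair was not alone in this. Of 1599 pairs of tested genes whose exons overlap on opposite strands, 809 had non-whole counts for both members in at least 8 libraries, and in 331 of these the sum was whole in each such library. The strand setting of the counting is not given in the sources used here. Reads divided between genes on opposite strands are what counting without the strand of a read gives. Wherever both genes are present, their split therefore rests on the counting program, while their sum does not.

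The target of both treatments was looked at first, as a check of the labels. Khk, which encodes the enzyme that phosphorylates fructose, was at 266 ± 59.9 CPM (counts relative to the TMM-scaled library total; mean ± SD, n = 4) in LFD and 264 ± 39.8 in HFD. It fell to 12.7 ± 3.85 CPM in HFD + siRNA (log2 fold change against HFD −4.38, adjusted p = 1.9e-08, edgeR's quasi-likelihood test) and to 120 ± 24.1 CPM in HFD + Inhib (−1.14, adjusted p = 7.5e-04).

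Txnip was high in all 16 libraries. The LFD libraries 1 to 4 had 50.2, 111, 215 and 97.7 CPM, a range that took in all 12 other libraries. The HFD libraries had 110, 72.8, 103 and 114 CPM. The HFD + siRNA libraries lay close together, at 77.4, 87.1, 88.5 and 74.0 CPM. The HFD + Inhib libraries had 141, 187, 186 and 200 CPM, each above all HFD and HFD + siRNA libraries but not above LFD replicate 3. From highest to lowest, the group means were 179 ± 25.7 CPM in HFD + Inhib, 118 ± 69.4 in LFD, 99.8 ± 18.6 in HFD and 81.8 ± 7.16 in HFD + siRNA. Each neighbouring pair in that order overlapped.

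Gm15441 was almost absent outside the inhibitor group. The LFD libraries had 0.0620, 1.03, 0.625 and 0.456 CPM. The HFD libraries had 0.305, 0.0742, 0.162 and 0.241 CPM, and the HFD + siRNA libraries 0.202, 0.209, 0.310 and 0.130 CPM. In expected counts, those 12 libraries held between 1.48 and 28.78 counts each, and LFD replicate 1 and HFD replicate 2 were under 3 counts. The HFD + Inhib libraries had 202, 140, 76.9 and 100 CPM, from 2376.32 to 5712.52 counts. All 4 stood above every other library, and the mean of 130 ± 54.7 CPM was 664 times that of HFD (0.195 ± 0.0998), 610 times that of HFD + siRNA (0.213 ± 0.0741) and 239 times that of LFD (0.543 ± 0.402). The fitted log2 fold change against HFD was 9.44. Since this rise is why the gene was chosen, no test is attached to it.

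**Figure D1:**
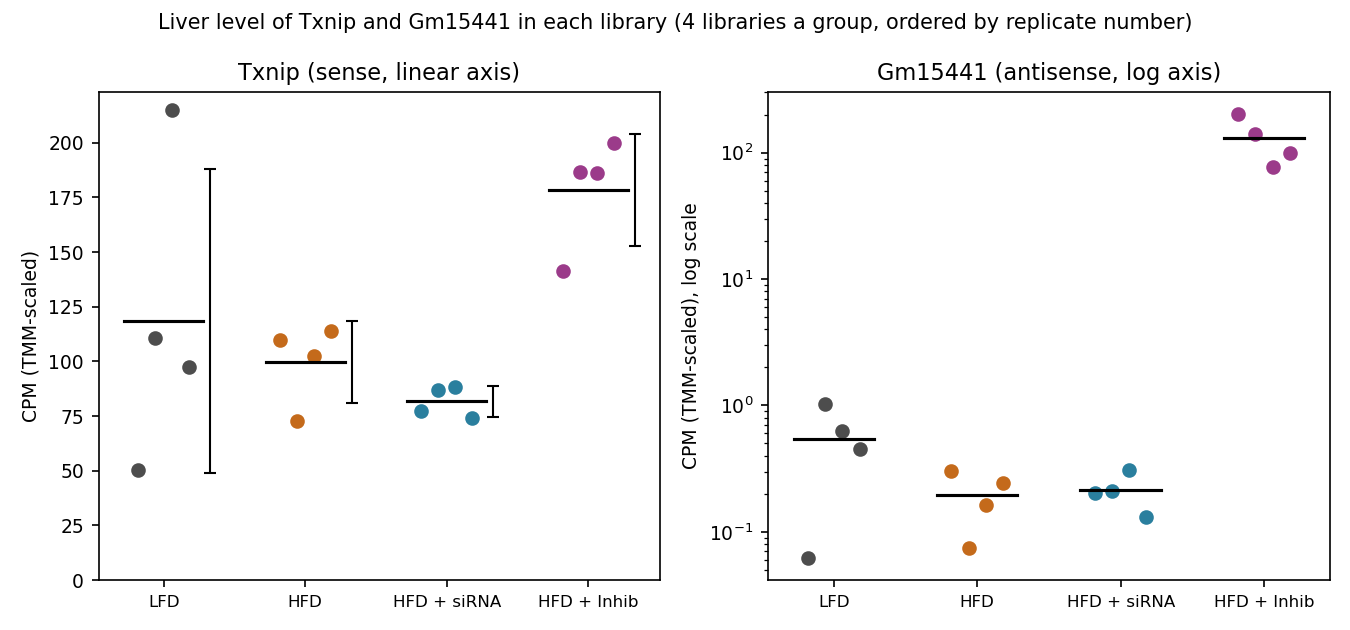
CPM of Txnip (left, linear axis) and Gm15441 (right, log axis) in each of the 16 libraries, with a line at the mean of each group and, for Txnip, a bar of ± 1 SD (n = 4). Txnip differs by less than an order of magnitude across the study, whereas Gm15441 is at 100 to 202 CPM in 3 of the 4 HFD + Inhib libraries, 76.9 in the other one, and at most 1.03 elsewhere.

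With the inhibitor, the antisense RNA reached the level of its coding partner by the counting program's split of their reads. Values per kb also rest on the longest transcript of each gene, and the share of the shorter Gm15441 transcript is not known. Per kilobase of the longest transcript, Gm15441 was at 78.6 CPM per kb in HFD + Inhib and Txnip at 63.2, against 0.118 and 35.3 in HFD. Replicates 1 and 2 had more Gm15441 than Txnip on this scale (122 against 49.99, and 84.9 against 66.0 CPM per kb). Replicates 3 and 4 had less (46.5 against 65.9, and 60.6 against 70.8). Gm15441 took 58.8%, 42.9%, 29.2% and 33.4% of the summed counts of the pair in the 4 libraries, and the 95% Wilson interval of the first ran from 57.8% to 59.8%. The intervals cover counting error only, and the libraries differ by far more than that. The library with the most Gm15441, replicate 1, was also the one with the least Txnip of its group, and both values rest on the same split of reads.

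Without the inhibitor, the share of Gm15441 in the pair was at most 0.923%, in LFD replicate 2. It ranged from 0.123% to 0.923% in LFD, from 0.102% to 0.277% in HFD and from 0.175% to 0.349% in HFD + siRNA. The 3 groups overlapped. Gm15441 passed the filter on low counts through the HFD + Inhib libraries and failed it in the other 12 taken alone, so no test between those groups was read for it.

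The sum of both genes does not depend on how the reads were split. It was 119 ± 69.6 CPM in LFD and 99.9 ± 18.7 in HFD, and with treatment 82.0 ± 7.22 in HFD + siRNA and 308 ± 34.98 in HFD + Inhib. The 4 inhibitor libraries, from 263 to 343 CPM, were above all others, of which the highest was LFD replicate 3 at 216 CPM. As Gm15441 enters the sum, this too is a description.

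**Figure D2:**
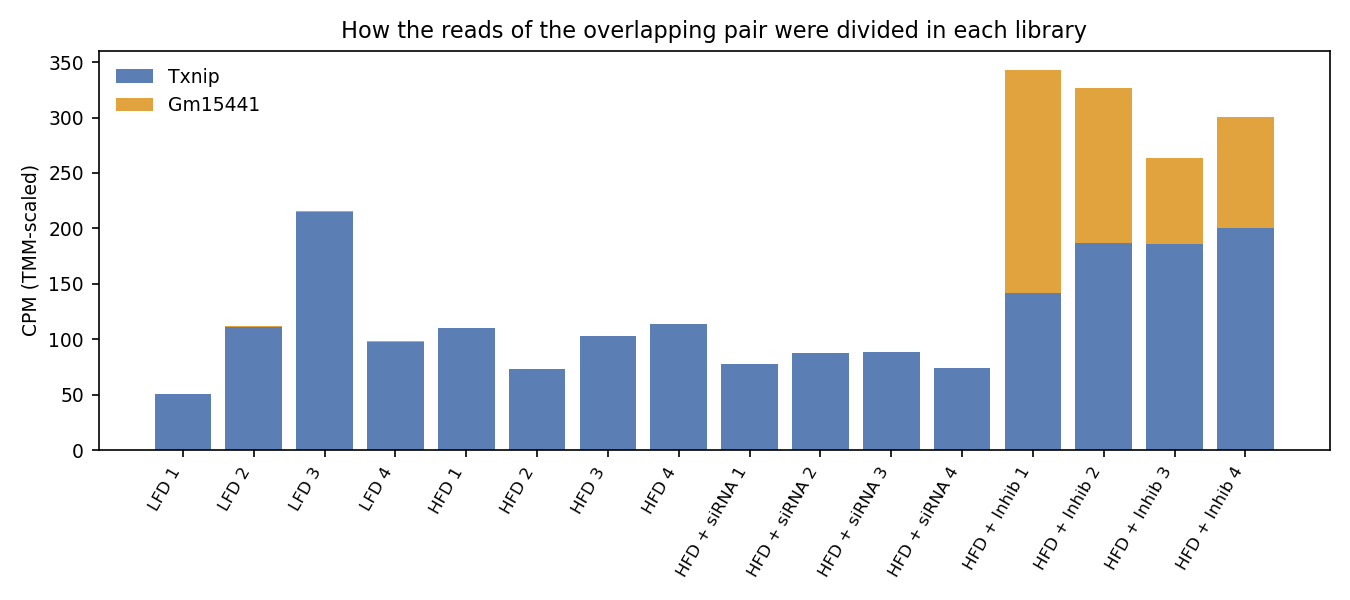
Stacked CPM of Txnip and Gm15441 in each library, with the axis starting at 0. The bars of the 4 HFD + Inhib libraries reach 263 to 343 CPM, and Gm15441 fills between 29.2% and 58.8% of each, while it can hardly be seen in the other 12.

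The diet comparison asked what high-fat feeding did to the pair. Txnip did not pass the test in HFD against LFD (log2 fold change −0.25, SE 0.29, adjusted p = 0.589, edgeR), where 18.4% of the 18335 genes tested did. The estimate turned positive (0.22) without LFD replicate 3. For Gm15441, whose choice took HFD as its baseline, the difference of −1.59 is a description. Gm15441 had at most 28.78 counts in any of these libraries. Its HFD libraries were all below 3 of the 4 LFD libraries, and the fourth, replicate 1, was the lowest of the study.

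Knockdown of Khk was next set against HFD. Txnip was not called (−0.29, SE 0.29, adjusted p = 0.566, edgeR), in a comparison where 11.7% of genes were. Gm15441 differed by 0.17, again a description. With 5.75 to 8.89 counts of Gm15441 in 3 of the 4 HFD + siRNA libraries and 4.43 in the other, only a large change could have been seen at this depth. Against LFD, where 8.63% of genes were called, HFD + siRNA gave −0.53 for Txnip (SE 0.29, adjusted p = 0.298) and, as a description, −1.42 for Gm15441. The Txnip difference was −0.80 with an adjusted p of 0.0424 without LFD replicate 1, and −0.086 with an adjusted p of 0.876 without LFD replicate 3.

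Txnip was higher with the inhibitor than with the siRNA. In HFD + Inhib against HFD + siRNA, Txnip was 2.18-fold higher (log2 fold change 1.13, SE 0.29, adjusted p = 0.00697, edgeR), with no overlap between groups. Of all genes, 33.8% were called in that comparison. In HFD + Inhib against HFD, it was 1.79-fold higher (0.84, SE 0.29), again without overlap, but its adjusted p of 0.0530 lay just past the threshold of 0.05. Of all genes, 18.2% were called there. Other settings fell on both sides of it: fitting only those 8 libraries gave 0.83 with an adjusted p of 0.00425, DESeq2 gave 0.0178 and the replicate number as a block 0.0477, whereas GC content and length offsets gave 0.0758 and the 8 fits without 1 library 0.0524 to 0.147. Against LFD, where 36.9% of genes were called, the difference was 0.59 (SE 0.29, adjusted p = 0.116), 1.05 (adjusted p = 0.00211) without LFD replicate 3, and 0.34 (adjusted p = 0.264) without LFD replicate 1. As reads were divided between the 2 genes, the Txnip estimates in all comparisons with the inhibitor group depend on that division. For the summed counts, the log2 fold change of HFD + Inhib was 1.91 against HFD + siRNA, 1.63 against HFD and 1.37 against LFD.

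**Figure D3:**
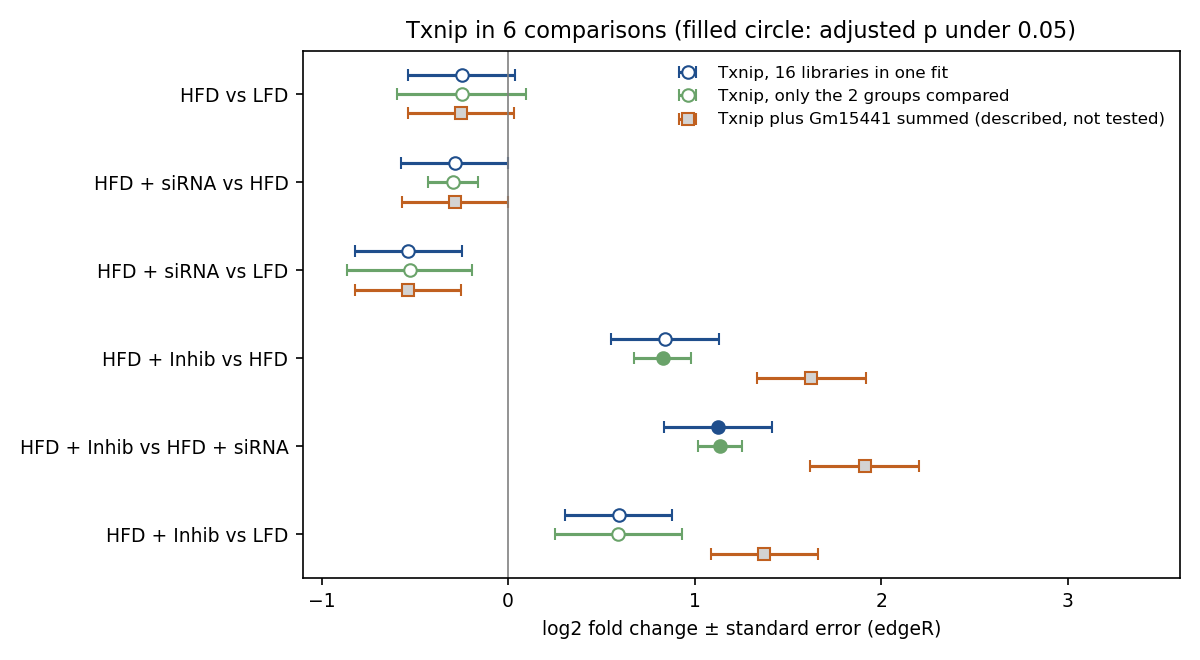
Log2 fold changes (± SE, edgeR) in 6 comparisons for Txnip in the fit of 16 libraries, for Txnip in fits of only the groups compared, both as circles, filled where the adjusted p is under 0.05. Grey squares are the summed counts of Txnip and Gm15441, which are described and not tested. Each SE bar is the absolute change divided by the square root of the F statistic of its fit. Txnip lies at 0.84 in HFD + Inhib against HFD by the fit of 16 libraries, open there and filled in the fit of 8 libraries, and the summed pair lies at 1.63.

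The spread of Txnip within LFD was set beside that of a few genes of fasting, insulin and stress responses, some of them picked after their values were seen. Angptl4, a fasting-induced inhibitor of lipoprotein lipase, was at 19.998, 64.4, 140 and 32.5 CPM in LFD replicates 1 to 4. Igfbp1, which insulin represses through FOXO1, was at 47.3, 104, 345 and 81.5 CPM. Both had the same order of the 4 libraries as Txnip. Saa1, an acute-phase protein, had the reverse order, with 68.6, 16.4, 9.67 and 25.7 CPM. Angptl4 (Pearson r = 0.906) and Saa1 (−0.908) also stand out in a ranking by likeness to Txnip over all 16 libraries. That ranking included the LFD libraries, so the order of these genes within LFD is no separate observation. Egr1, an immediate early gene, was also highest in LFD replicate 3, at 59.7, 55.4, 228 and 13.9 CPM. Irs2, an insulin receptor substrate that FOXO1 induces, was at 58.6, 67.1, 129 and 76.0 CPM, likewise highest in replicate 3. Not every fasting-responsive gene followed this order. Pck1, the rate-limiting enzyme of gluconeogenesis, was at 1781, 1991, 1295 and 1162 CPM and Pdk4, which restrains glucose oxidation, at 12.3, 17.5, 12.04 and 6.26 CPM, both highest in replicate 2. Of the 10 insulin and FOXO responsive genes, 1 (Igfbp1) had the order of Txnip and 4 were highest in LFD replicate 3, beside 650 and 4509 of the 18335 genes tested. Whether saline, insulin or feeding before tissue collection had a part in this was not tested.

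Over all 16 libraries, the genes whose log2 CPM was most like Txnip were Add3 (Pearson r = 0.915), a membrane skeleton protein, Jmy (0.913), an actin nucleator, Angptl4 (0.906), St3gal6 (0.895), a sialyltransferase, and Zbtb10 (0.892). Saa1 was the most opposite (−0.908). The comparison was made over 12408 genes, and its points share the 4 groups, so that r includes the differences between groups. Gm15441 ranked 72 for likeness to Txnip (r = 0.763).

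The genes most like Gm15441 were Hsd17b11 (r = 0.982), a dehydrogenase of lipid droplets, the fatty acid ω-hydroxylases Cyp4a14 (0.980) and Cyp4a10 (0.980), Abhd6 (0.980), a monoacylglycerol lipase, and Acot1 (0.976), an acyl-CoA thioesterase. Cyp4a14, for example, was at 201, 74.7, 330 and 197 CPM in HFD and at 7368, 6855, 6995 and 6885 in HFD + Inhib. Acot1 was at 16.1, 15.3, 17.8 and 15.6 CPM in HFD and at 458, 362, 236 and 369 in HFD + Inhib. Enho, which encodes the secreted peptide adropin, was the most opposite (r = −0.961), at 11.9 to 17.8 CPM in HFD and 0.660 to 1.87 in HFD + Inhib. Txnip ranked 681 for likeness to Gm15441. These values of r are carried by the step between the inhibitor group and the other 12 libraries.

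**Figure D4:**
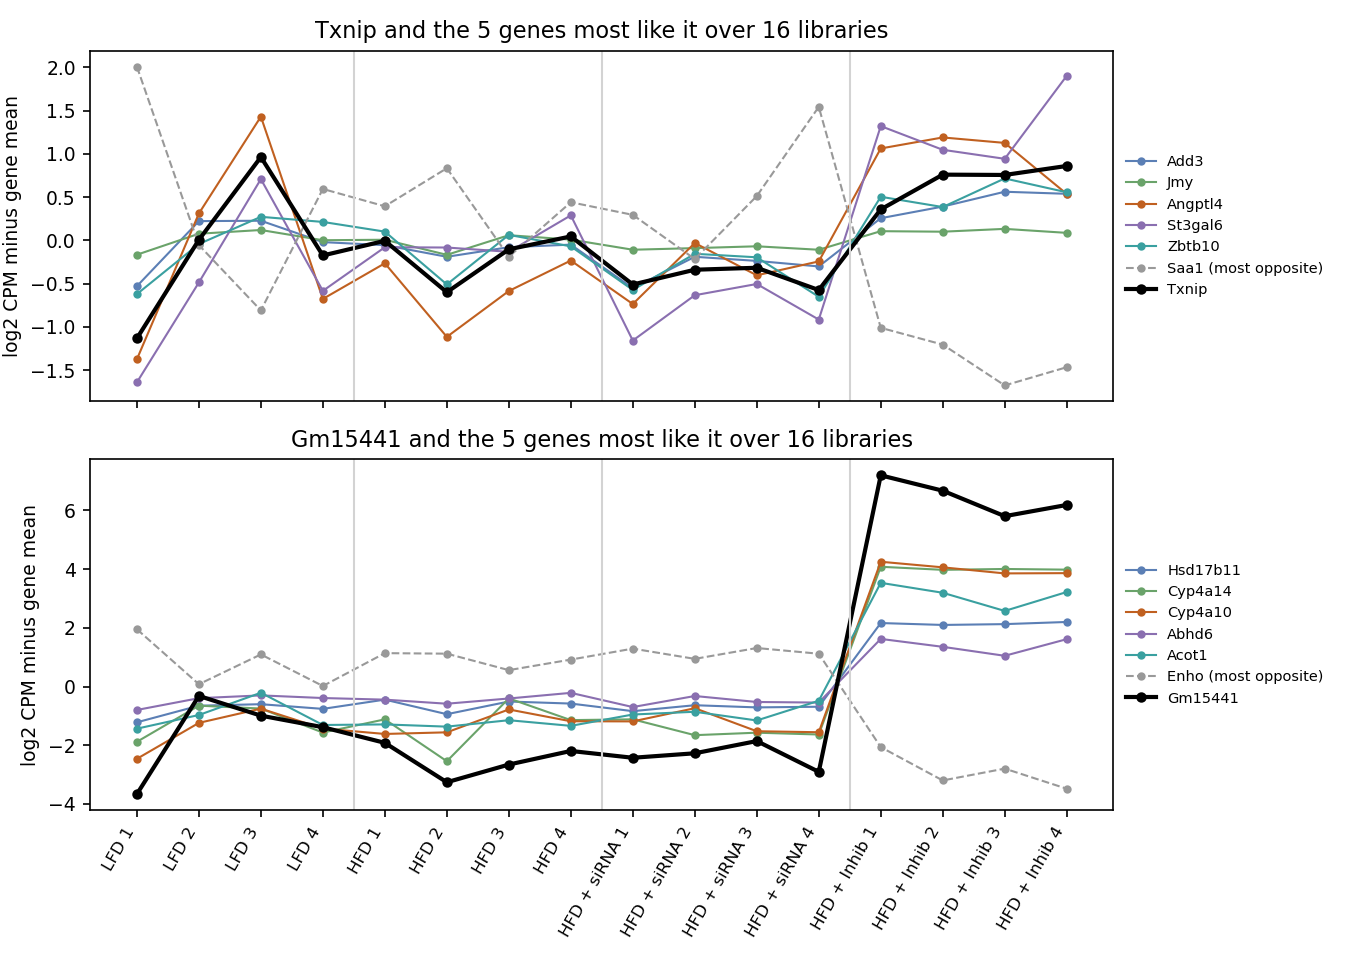
Log2 CPM minus the mean of each gene over the 16 libraries, for Txnip (top) and Gm15441 (bottom) with the 5 genes most like each and the most opposite one (dashed). Genes most like Txnip also vary within LFD, whereas those most like Gm15441 step up in the 4 HFD + Inhib libraries.

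PPARα targets were described as a list because Gm15441 is one of them by background knowledge, although it was not put on the list. In HFD + Inhib against HFD, 28 of 30 rose and 0 fell, against 9.8% rising among all genes. The median log2 fold change was 1.96, beside −0.004 for all genes. The largest was Fabp3 (6.54), a fatty acid carrier. It was at 0.0921, 0, 0.0554 and 0.125 CPM in HFD and at 11.2, 3.36, 3.70 and 5.05 in HFD + Inhib, so that its fold rests on a baseline near 0. Fabp3, which is among the 28, passed the filter on low counts through the inhibitor libraries, so its rise is a description. The other 29 targets also passed the filter in the 12 libraries without the inhibitor. Next came the ω-hydroxylases Cyp4a31 (5.42), Cyp4a10 (5.26) and Cyp4a14 (5.13), and Ehhadh (4.65), a peroxisomal β-oxidation enzyme. The 2 that did not pass the test were Cpt1a (0.21) and Fgf21 (−0.95). In HFD + siRNA against HFD, which shares the HFD libraries, 0 of 30 rose and 2 fell (Cyp4a31 −0.73 and Ehhadh −0.65), beside 5.2% rising and 6.55% falling among all genes, so the share that fell was near that of all genes. The median was −0.01. In HFD against LFD, 9 rose and 1 fell (9.58% and 8.8% of all genes). List by list, calls were then looked at again with each library of the 2 groups left out in turn, 8 fits a comparison. Here 26 of the 28 calls with the inhibitor and the 10 of HFD against LFD held in every one of them. Angptl4 (without HFD replicate 2), Creb3l3 and, with the siRNA, Cyp4a31 did not.

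Targets of ChREBP, a main activator of Txnip, were taken next. With the siRNA, 7 of 16 fell and 0 rose against HFD (6.55% of all genes fell), with a median of −0.69. They were Khk itself (−4.38), which the siRNA targets, Pnpla3 (−2.77), Fasn (−1.68), Elovl6 (−1.66), Me1 (−1.60), Pklr (−1.29) and Acaca (−1.104). All but Khk and Pklr act in, or supply, the synthesis and remodelling of fatty acids and lipids. Pklr, the liver pyruvate kinase, is a carbohydrate-responsive gene like Txnip. With the inhibitor, 5 fell and 2 rose against HFD (8.42% and 9.8% of all genes), and the median was 0.001. Pklr (−1.93), Tkfc (−1.33), Khk (−1.14), Tm6sf2 (−0.76) and Arrdc4 (−0.75) fell, while Me1 (0.89) and Agpat2 (0.67) rose. These 7 calls held with each library left out, as did those with the siRNA other than Pnpla3, which was lost in 6 of 8 fits and stood at −2.02 without HFD replicate 2.

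Among the relatives of Txnip, Arrdc4 and Arrdc3 fell with the inhibitor. Arrdc4, an α-arrestin that is likewise induced by ChREBP and MondoA, was at 11.8, 16.6, 20.3 and 21.0 CPM in HFD and at 10.0, 10.3, 9.52 and 11.45 in HFD + Inhib, where it fell by 0.75 on the log2 scale. Arrdc3, an α-arrestin of receptor trafficking, also fell with the inhibitor (−1.04), a call lost in 4 of 8 fits without 1 library (adjusted p up to 0.0633). Both had risen in HFD against LFD (Arrdc4 0.86, Arrdc3 1.21). Of the 6 tested members of the arrestin list, these 2 were the ones called in HFD + Inhib against HFD (18.2% of all genes) and in HFD against LFD (18.4%), and 0 were called in HFD + siRNA against HFD (11.7%). Arrdc5 was too low to be tested.

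Regulators of Txnip transcription were counted next. Of 16, 0 were called in HFD + siRNA against HFD (11.7% of all genes). In HFD + Inhib against HFD (18.2% of all genes), 1 was called, the E-box factor Usf1 (−0.48). In HFD + Inhib against HFD, Mlxipl gave 0.02, Mlxip 0.02, Foxo1 0.06 and Ppara 0.29, none of which passed. In HFD against LFD, 3 of the 16 were called, a share near the 18.4% of all genes. Ppara rose (0.81) while Mlxipl (−0.62) and Mlxip (−0.38) fell. The call of Mlxip was lost in 5 of 8 fits without 1 library (adjusted p up to 0.116), and the others held.

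Thioredoxin, the protein that Txnip binds, rose modestly with the inhibitor. Txn1 was at 122, 113, 109 and 120 CPM in HFD and at 151, 197, 115 and 149 in HFD + Inhib (log2 fold change 0.40), and the groups overlapped. Of 21 genes of the thioredoxin and peroxiredoxin system, 5 rose and 1 fell with the inhibitor against HFD, beside 9.8% rising and 8.42% falling among all genes. Besides Txn1, the risers were Msrb2 (0.81), a methionine sulfoxide reductase, Prdx1 (0.41), a peroxiredoxin, Txnl1 (0.40) and Glrx (0.35), while the peroxiredoxin Prdx4 fell (−0.64). With the siRNA, 3 rose and 2 fell against HFD (5.2% and 6.55% of all genes). Prdx3, the mitochondrial peroxiredoxin, fell the most (−0.87), Glrx fell too (−0.56), and Msrb1 (0.40), Prdx2 (0.37) and Msra (0.28) rose. Only Msrb2, Txnl1 and Prdx4 with the inhibitor and Prdx3 and Glrx with the siRNA were called in each of the 8 fits without 1 library, and Txn1 was lost in 5 of 8 (adjusted p up to 0.110).

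Of 14 inflammasome genes, 4 rose and 1 fell in HFD + Inhib against HFD, where 9.8% of all genes rose and 8.42% fell. Il1rn, the antagonist of the interleukin-1 receptor, was at 3.25, 2.72, 3.53 and 4.46 CPM in HFD and at 30.3, 13.5, 13.05 and 25.4 in HFD + Inhib (log2 fold change 2.57). Nlrp12 (1.52), Nek7 (0.36) and Nlrp6 (0.28) rose as well. Gsdmd, the pore-forming gasdermin, fell (−1.001). The genes most often tied to Txnip in this pathway did not pass, with −0.64 for Nlrp3, −0.17 for Casp1 and 0.32 for Il1b. Nlrp3 was at no more than 2.33 CPM in any library, so small changes could not be seen. With the siRNA, Nlrp6 (0.74) and Il18 (0.50) rose and Aim2 fell (−0.61) against HFD, where 5.2% of all genes rose and 6.55% fell. With 1 library left out, the call of Nlrp6 with the inhibitor was lost in 7 of 8 fits (edgeR, adjusted p up to 0.142). With the siRNA, Il18 was lost in 8 of 8 (up to 0.110) and Aim2 in 4 of 8 (up to 0.111).

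**Figure D5:**
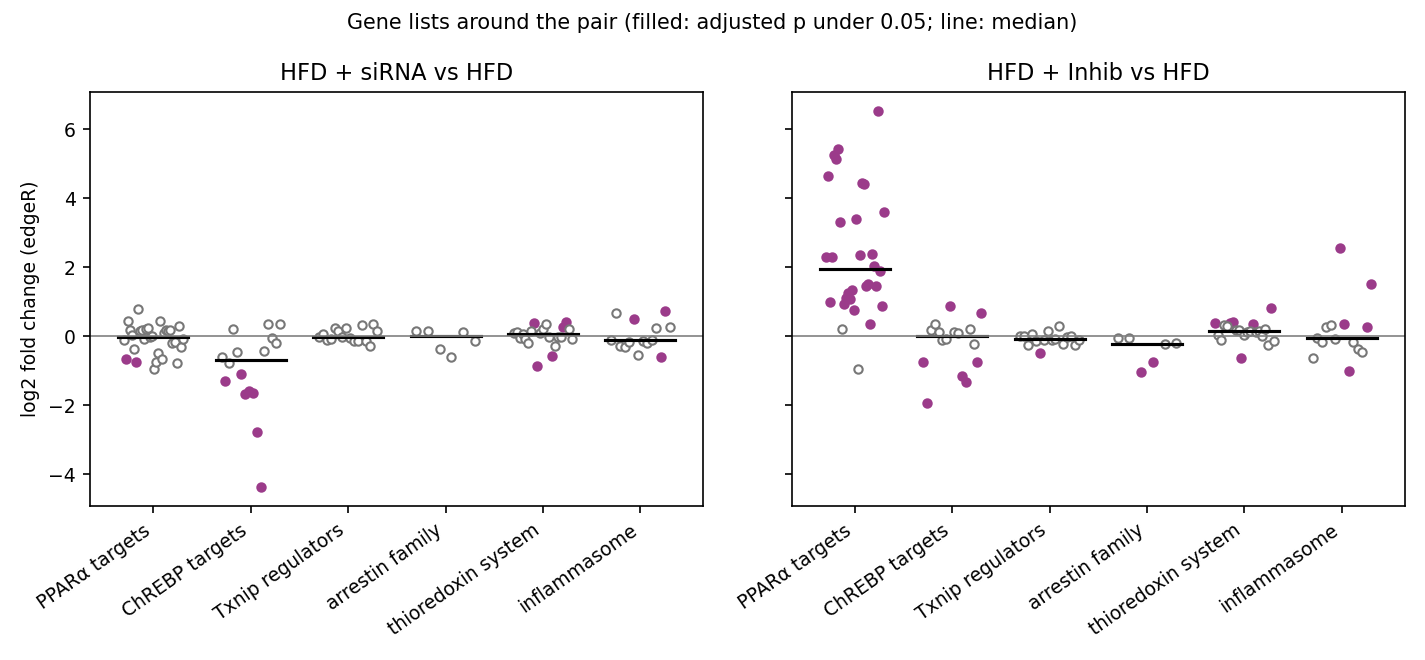
Log2 fold changes (edgeR) of single genes in 6 lists around Txnip and Gm15441, for HFD + siRNA against HFD (left) and HFD + Inhib against HFD (right); filled points have an adjusted p under 0.05, lines are medians, and both panels share the HFD libraries. The PPARα targets lie high with the inhibitor (median 1.96) and near 0 with the siRNA, while the ChREBP targets lie low with the siRNA (median −0.69).

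Txnip restrains glucose uptake, and a list on glucose entry, its first phosphorylation and their control gave 3 of 10 lower and 0 higher in HFD + Inhib against HFD (8.42% and 9.8% of all genes). These were Slc2a4 (−1.87), the insulin-responsive glucose transporter, Ddit4 (−1.22), an inhibitor of mTORC1 signalling, and Gckr (−0.57), the regulator of glucokinase. Slc2a4 was low, at 0.762, 0.411, 1.18 and 0.508 CPM in HFD and 0.0707, 0.117, 0.130 and 0.420 in HFD + Inhib. These groups overlapped, and its fold rests on values near 0. With the siRNA, Slc2a1, a glucose transporter that Txnip acts on, rose (0.55). Slc2a4 and Slc2a1 were each lost in 4 of 8 fits without 1 library (adjusted p up to 0.0656 and 0.0700), and Slc2a4 stood at −2.69 without HFD + Inhib replicate 4. For the counts that follow, the shares of all genes called were 11.7% with the siRNA against HFD, 18.2% with the inhibitor against HFD and 18.4% in HFD against LFD. Among 10 insulin and FOXO responsive genes, 0 were called with the siRNA, and Sesn3 (−0.60) and Irs1 (−0.35) fell with the inhibitor. In HFD against LFD, Igfbp1 (−1.64) and Irs2 (−1.07) fell and Sesn3 rose (0.48). Without LFD replicate 3, Igfbp1 was at −0.73 (adjusted p = 0.149) and no longer called. Of 12 immediate early genes, Ier2 fell (−0.76) with the inhibitor against HFD, 0 were called with the siRNA, and Egr1 (−2.03) and Ier2 (−0.84) fell while Klf6 rose (0.56) in HFD against LFD. Without LFD replicate 3, Egr1 was at −0.97 (adjusted p = 0.211). None of these 4 calls of immediate early genes, nor that of Irs1, held in all 8 fits without 1 library, whereas Irs2 and Sesn3 did. Of 13 clock genes tested, 0 were called in either treatment against HFD. Some of them varied widely within a group, so that small changes in these could not be seen. Dbp, for example, was at 37.2, 16.2, 59.1 and 3.99 CPM in HFD + siRNA. In HFD against LFD, Per3 (1.85) and Per2 (1.14) rose while Npas2 (−1.80) and Cry1 (−1.07) fell. Of these 4 calls, only that of Per2 held in all 8 fits without 1 library.

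The neighbours of the pair on the chromosome were counted next. Of 63 genes annotated within 250 kb of Txnip, 16 could be tested, and 0 rose with the inhibitor against HFD (9.8% of all genes rose and 8.42% fell). Pias3 (−0.45) and Hjv (−0.27), the hemojuvelin of iron sensing, fell. With the siRNA, 6330549D23Rik rose (0.81) and Rnf115 fell (−0.35), beside 5.2% rising and 6.55% falling among all genes. Each of these 4 calls was lost in at least 4 of 8 fits without 1 library. Of 494 tested genes annotated as antisense, 24 rose and 32 fell with the inhibitor against HFD (11.3% called, against 18.2% of all genes).

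Markers of liver cell types were set beside the pair. The 8 hepatocyte markers, of which Alb was the most abundant, summed to 78355 ± 6863 CPM in HFD, against 84576 ± 5300 with the siRNA and 52996 ± 1599 with the inhibitor. With the inhibitor, 3 of the 8 fell (Ttr −0.93, Alb −0.77 and Cps1 −0.53) and 0 rose against HFD. Among all genes, 8.42% fell and 9.8% rose in this comparison, which the marker counts against HFD that follow share. Kupffer cell and macrophage markers summed to 202 ± 18.4 CPM in HFD and 164 ± 30.1 in HFD + Inhib, with 1 of 7 lower (Clec4f −0.51), and Clec4f the most abundant. Against HFD, 1 of 6 endothelial markers was higher, 2 of 6 stellate and 2 of 5 lymphocyte markers were lower, and 0 of 5 cholangiocyte markers were called. With each library left out in turn, the endothelial call and 1 each of the stellate and lymphocyte calls were lost, while those of hepatocyte and Kupffer cell markers held. In HFD + Inhib against HFD + siRNA, 33.8% of all genes were called. There, 6 of 8 hepatocyte markers (median −0.64) and 4 of 7 Kupffer cell and macrophage markers (median −0.45) were lower, and 0 were higher. Of the endothelial markers 1 was higher and 1 lower, and 2 stellate and 2 lymphocyte markers were lower. The adipocyte list summed to 34.6 ± 16.3 CPM in HFD + Inhib and 2.84 ± 3.29 in HFD, almost all from Cfd (3.68, and 4.81 without HFD replicate 2), its most abundant gene. Its defining markers Adipoq, Plin1 and Lep were at 0 in 9, 10 and 15 of 16 libraries. The 5 pancreas markers were too low to be tested. The part of these shifts in the levels of Txnip and Gm15441 was not tested.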

How the data were processed

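The values deposited by the authors are expected counts for 50559 gene symbols in 16 libraries, without scaling between libraries. The submitters' processing notes name STAR, RSEM and the build mm39. The annotation and strand setting are not given in the sources used here. The paper's methods name a probe-based assay, which does not match RSEM counts, so the assay is uncertain. Expected counts were rounded for tests (15.1% of values were not whole). Genes were kept by filterByExpr (minimum count 10, total 15), leaving 18335. Libraries were TMM-scaled and compared within 1 fit of 16 libraries by edgeR's quasi-likelihood test (edgeR 4.0.16, R 4.3.3; dispersion 0.0380), with Benjamini-Hochberg adjusted p-values across every gene tested, called under 0.05. The script was tested on simulated counts. Log2 CPM used a prior count of 2. The SE given with edgeR's log2 fold changes is the absolute change divided by the square root of the F statistic of its test. DESeq2 1.42.0, other scalings and filters, a GC and length correction, and leaving out libraries were the alternatives. Leaving out each library for the genes of lists and markers was added after seeing the data. Tests of Gm15441 and of its share between the other 3 groups had been planned, but are not read, since without the HFD + Inhib libraries it failed the filter.

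Gene structure came from GENCODE M21 and sequence from RefSeq, both on GRCm38. No coordinates were converted. Of the symbols, 48908 matched RefSeq. No 2 libraries of a group agreed within sampling noise. The members, lists and rules were chosen with earlier results of these data known. From each list, the called genes with the largest changes (at most 5) and those tied to Txnip by their known role were to be named. Other list genes, the fuller account of the ChREBP list and Egr1, Irs2, Igfbp1, Pck1 and Pdk4 within LFD were named after their values were seen. Angptl4 and Saa1 within LFD are also in the ranking by likeness to Txnip, which used the same libraries.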

Additional observations from a re-analysis of the deposited data

Results flagged for a closer look

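In 64 groups of 4 libraries (16 measures), 2 held a library that stood far from the other 3, where chance flags about 1 in 20. Nlrp3 in HFD + siRNA replicate 3 was at 1.08 CPM, with the nearest library at 1.67 CPM and a gap of 0.883 of the range. Foxo1 in HFD + Inhib replicate 2 was at 45.9 CPM, with the nearest at 56.5 CPM and a gap of 0.875 of the range. Neither Txnip nor Gm15441 had such a library in any group.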

How the results depend on the processing

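Txnip in HFD + Inhib against HFD (0.84, not past the threshold in the reported fit) passed it without a filter on low counts (0.85), with at least 10 counts in every library (0.84), with DESeq2 (0.84) and in the fit of 8 libraries (0.83), but not with DESeq size factors or with GC content and length offsets (adjusted p = 0.0758, 0.76). Adjusted p-values over 8 fits that each left out 1 library ran from 0.0524 to 0.147, with differences from 0.72 to 0.93. With summed counts of the pair the difference was 1.91 against HFD + siRNA, 1.63 against HFD and 1.37 against LFD. With 1 library left out, an alternative chosen after seeing the data, the sums gave 1.501, 1.57, 1.59, 1.64, 1.64, 1.68, 1.69 and 1.70 against HFD, and 1.12, 1.29, 1.32, 1.34, 1.34, 1.39, 1.44 and 1.83 against LFD. In HFD + Inhib against HFD + siRNA, Txnip kept its direction and call under the 16 alternatives that used its own counts.

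With 1 library left out, Txnip ran from −0.49 to 0.22 in HFD against LFD (summed counts −0.50 to 0.21), positive without LFD replicate 3, from −0.80 to −0.086 in HFD + siRNA against LFD (summed counts −0.80 to −0.091) and from 0.34 to 1.05 in HFD + Inhib against LFD. As a description on few counts, Gm15441 ran from −1.92 to −1.12 in HFD against LFD. In HFD + siRNA against HFD it ran from −0.16 to 0.50, negative without HFD replicate 2 (−0.16) or HFD + siRNA replicate 3 (−0.10).

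The replicate numbers are not known to pair libraries. Between same-numbered libraries, deviations from the group mean had a Pearson r from −0.13 to 0.34, the highest in replicate 3 of HFD + Inhib against HFD. With the replicate number as a block, Txnip in HFD + Inhib against HFD was 0.82 with an adjusted p of 0.0477, and counts of called genes stayed within 1.5 times of those reported.

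Genes called at an adjusted p under 0.01 in place of 0.05 numbered 1287 in HFD against LFD, 689 in HFD + siRNA against HFD, 1733 in HFD + Inhib against HFD, 3711 in HFD + Inhib against HFD + siRNA, 566 in HFD + siRNA against LFD and 4123 in HFD + Inhib against LFD. In the fit of 8 libraries, HFD + siRNA against LFD gave 808 in place of 1582. With 1 library left out, the counts ran from 2001 to 3691 in HFD against LFD, from 1100 to 1981 in HFD + siRNA against HFD and from 965 to 1456 in HFD + siRNA against LFD. The cause was not tested. A minimum of 10 counts in every library removed Gm15441. Its low counts limit what can be seen outside the inhibitor group.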
